A study of Mus musculus with 6 samples.

Results

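Followed here in P19 cells were 10 mouse genes that are expressed mainly from 1 parental copy and lie outside the insulin-like growth factor axis: Zrsr1, Usp29, Peg3, Dlk1, Meg3, Cdkn1c, Grb10, Mest, Ndn and Snrpn. Array probes were assigned to these genes through the RefSeq accession that the scanner files give for each probe. Of the 10 genes, 9 were matched, by 13 probes, among 17178 genes with a probe. Meg3 was matched by no probe and is not analysed here. All 9 matched genes passed the filter on dim probes, which kept what rose clearly over background on 2 arrays or more. So did 13381 genes in all, and 6 of the 9 were well above background on all 6 arrays. The exceptions were Zrsr1, Usp29 and Dlk1.

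P19 is an embryonal carcinoma line that turns into neurons and glia when it is aggregated with retinoic acid. A line expressing AICD, the intracellular fragment that gamma-secretase cuts from the amyloid precursor protein, was set against a line carrying the empty vector pCDNA. Both were sampled undifferentiated, after 4 days of aggregation with all-trans-retinoic acid (aggregated), and 2 days after replating (differentiated). There was 1 array for each line in each state, 6 in all, so no line and state has a replicate, and the labels do not say whether a line is a clone or a pool of transfected cells. Expression of the AICD fragment itself was not checked here.

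Genomic imprinting silences the copy of a gene inherited from either the mother or the father, by marks laid down on the DNA in the germ line. Imprinted genes lie in clusters, each governed by a control region whose methylation differs between the parental copies, and many of them act on growth, placental function and the brain. In the mouse, Zrsr1, Usp29, Peg3, Dlk1, Mest, Ndn and Snrpn are expressed from the paternal copy, Meg3 and Cdkn1c from the maternal copy, and Grb10 from the maternal copy in most tissues and from the paternal copy in neurons. The arrays measure the RNA of both copies together, so nothing here bears on which copy was read. In a mixed culture, fewer cells of a type and less RNA per cell cannot be told apart.

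The sequences around the annotated starts of 4 genes on which the results turn are printed here because the control regions of imprinted clusters are defined by CpG methylation. Each runs 5′ to 3′ on the gene's strand, from 250 bases before to 50 bases after the start, and is taken from RefSeq (GRCm38.p6), with CpG dinucleotides in capitals. The windows are Zrsr1 (chr11:22971755-22972054, plus strand), Usp29 (chr7:6730333-6730632, plus strand), Grb10 (chr11:12037371-12037670, minus strand, the upstream of 2 annotated starts) and Snrpn (chr7:60005150-60005449, minus strand, the most downstream of 4 annotated starts).
Zrsr1: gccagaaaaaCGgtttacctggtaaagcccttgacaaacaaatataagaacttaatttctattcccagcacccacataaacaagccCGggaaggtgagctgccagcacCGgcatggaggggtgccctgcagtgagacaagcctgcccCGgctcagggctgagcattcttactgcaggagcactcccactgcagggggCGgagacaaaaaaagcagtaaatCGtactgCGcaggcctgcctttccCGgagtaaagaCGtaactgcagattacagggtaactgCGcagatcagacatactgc
Usp29: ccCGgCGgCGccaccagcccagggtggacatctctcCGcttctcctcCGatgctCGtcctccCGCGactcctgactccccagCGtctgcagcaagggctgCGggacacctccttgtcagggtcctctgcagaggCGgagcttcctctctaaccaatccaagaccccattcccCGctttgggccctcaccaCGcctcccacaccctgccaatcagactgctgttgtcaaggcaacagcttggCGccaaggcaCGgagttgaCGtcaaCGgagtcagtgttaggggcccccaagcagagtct
Grb10: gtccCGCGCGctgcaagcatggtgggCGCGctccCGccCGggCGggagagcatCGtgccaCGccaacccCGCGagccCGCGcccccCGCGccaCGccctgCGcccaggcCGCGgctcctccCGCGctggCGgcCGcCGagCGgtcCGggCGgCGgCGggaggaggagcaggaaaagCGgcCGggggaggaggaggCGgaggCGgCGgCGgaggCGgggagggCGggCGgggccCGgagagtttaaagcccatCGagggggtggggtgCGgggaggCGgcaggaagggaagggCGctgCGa
Snrpn: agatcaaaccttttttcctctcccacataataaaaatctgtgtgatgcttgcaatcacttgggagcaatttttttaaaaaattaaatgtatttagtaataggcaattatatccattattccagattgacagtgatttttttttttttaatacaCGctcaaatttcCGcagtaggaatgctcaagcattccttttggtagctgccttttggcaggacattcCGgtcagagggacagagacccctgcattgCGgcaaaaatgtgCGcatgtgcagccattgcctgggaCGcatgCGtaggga

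RefSeq start windows were found for 9 of the 10 genes, 16 windows in all, and none was found for Cdkn1c. Over 32851 windows of the same length in the table the median was 7 CpG dinucleotides. Of the 16 windows, 11 had more. The printed Grb10 window had 45, at percentile 98.1 of all windows, and the printed Usp29, Zrsr1 and Snrpn windows had 17, 10 and 7. The other Snrpn windows had 2, 3 and 4. Peg3 and Usp29 are read in opposite directions, and their windows share 263 bases, so the printed Usp29 sequence also covers most of the Peg3 window (chr7:6730370-6730669, minus strand). The letters TGCCGC, the core bound by ZFP57, a zinc-finger protein that protects imprints, were searched on both strands. They occurred in 5 of the 16 windows, against 11.6% of all windows. Of the 5, 2 are Mest windows that overlap almost entirely, and the others belong to Grb10, Snrpn and Meg3. The letters GCCATNTT, a core bound by YY1, occurred in 0 of the 16 windows and in 6.05% of all windows. A match of letters is a description and not a bound site.

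**Figure D1:**
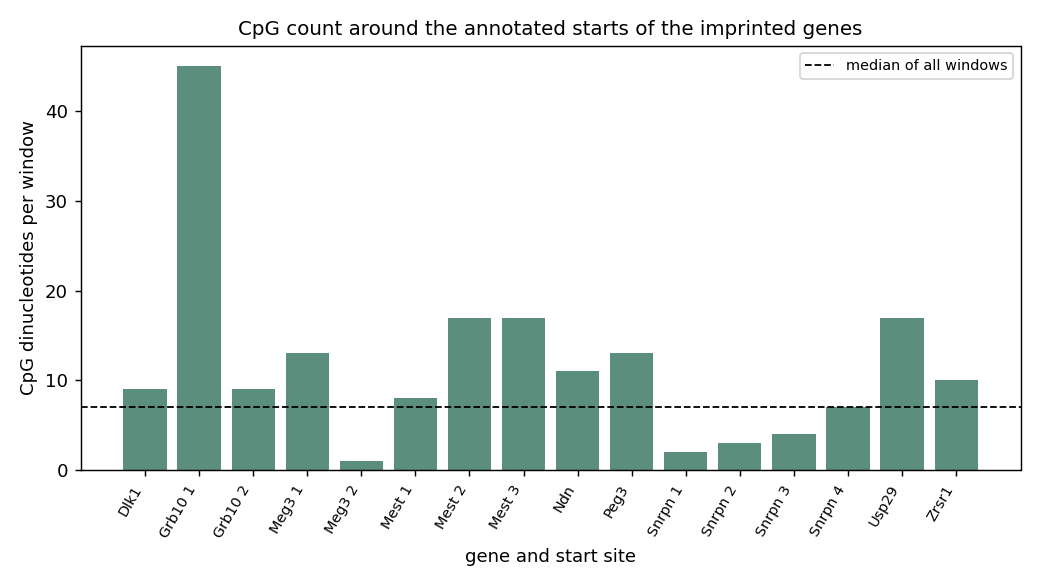
Bars give the number of CpG dinucleotides in each 300-base window around the annotated starts of 9 imprinted genes, numbered where a gene has several starts. The dashed line is the median of all 32851 windows (7), and the upstream Grb10 window stands highest at 45.

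Each array held 45018 spots, of which 62.0% to 65.9% of the non-control spots were well above background and 0 were saturated. Each signal was divided by the 75th percentile of its array and put on the log2 scale (normalized log2 signal), so 0 is the level of the 75th-percentile spot. Such levels compare 1 probe between arrays and not different genes with each other. Summed pluripotency markers fell and summed neuron markers rose along the labelled course, while summed glia markers changed little. The brightest genes weigh most in such sums. Summed signals of 8 measured pluripotency markers, in units of the 75th percentile and in the order undifferentiated, aggregated, differentiated, were 142, 23.0 and 21.9 in the AICD line and 150, 11.4 and 5.20 in the vector line. Those of 10 neuron markers were 15.7, 72.4 and 133 in the AICD line and 14.9, 46.5 and 174 in the vector line. Those of 4 measured glia markers, of 6 listed, were 12.5, 11.1 and 13.4 in the AICD line and 10.8, 8.56 and 9.32 in the vector line. Opposite changes can offset each other in such a sum. In both lines Mbp and S100b were higher in differentiated than in undifferentiated cells, and Slc1a3 and Aldh1l1 were lower. Among the pluripotency markers, Dppa5a stayed between -2.42 and -1.64 in normalized log2 signal. Esrrb rose from -3.74 to -2.33 at aggregation in the vector line. The undifferentiated pair was hybridised on slide 1 and the other 4 arrays on slide 2, so state and slide cannot be told apart in any comparison with the undifferentiated state.

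Differences were tested with limma in a model of line and state, with p-values adjusted by the Benjamini-Hochberg method over all 13381 genes and called at an adjusted p under 0.05. The error in this test comes from how much the line difference varied across the 3 states, not from a spread between cultures. Differences between single arrays carry no test. Where a gene was not well above background on an array, a fold against that array is a lower bound, written as at least N-fold.

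Among the 9 imprinted genes, 1 differed between the lines over the 3 states: Zrsr1, which was far lower in the AICD line in every state. Of all genes tested, 0.351% were called in this comparison (0.142% lower, 0.209% higher). The median line difference of the 9 genes was 0.09 on the log2 scale, against 0.002 for all genes. The other 8 genes had adjusted p-values of 0.561 to 0.964.

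Zrsr1 encodes a protein related to the small subunit of the splicing factor U2AF, and takes part in recognising the 3′ splice sites of minor introns. Its gene is a retrotransposed copy lying inside an intron of Commd1. In the AICD line its normalized log2 signal was -5.79, -6.51 and -5.35 over the 3 states, from undifferentiated to differentiated, and only the differentiated array was well above background. In the vector line it was -0.40, -0.32 and 0.79, well above background on all 3 arrays. Every AICD array lay below every vector array, with no overlap. Zrsr1 was at least 41.7-fold lower in AICD than in vector cells when undifferentiated, at least 43.0-fold lower when aggregated, and 70.4-fold lower when differentiated. These folds depend on how the background of dim spots is handled. With normexp background correction, which adds an offset of 50 to every signal, Zrsr1 was 7.69-, 7.78- and 17.6-fold lower in AICD than in vector cells in the 3 states, taking dim values as they stand, and the fitted difference was -3.35 (limma, adjusted p = 0.0281). In the processed signals the line means were -5.89 ± 0.59 in AICD and 0.02 ± 0.66 in vector arrays (SD over 3 states), and the fitted difference was -5.91 ± 0.22 (standard error; limma, adjusted p = 0.0266), in which 2 AICD arrays enter below background.

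The call for Zrsr1 rests on all 4 arrays of slide 2. Without either aggregated array the adjusted p was 0.153, and without either differentiated array 0.197, and in these fits 0 of all genes were called, while the difference stayed between -5.80 and -5.76. Fitted to the 4 arrays of slide 2 alone, the difference was -6.17 with an adjusted p of 0.0351. With no filter on dim probes it was -5.91 with an adjusted p of 0.068. Summed signals of 9 mesenchyme markers, of which limma called 0 for the line and 5 had an unadjusted p under 0.05 (12.5% of all genes did), were 2.04, 0.967 and 0.766 in AICD and 4.15, 7.29 and 31.4 in vector cells over the 3 states. On the AICD differentiated array 5 of these 9 markers were well above background, with Col1a1, Lum, Pdgfrb and Thy1 dim, against 9 of 9 on the vector array. When undifferentiated, Col1a2 and Col3a1 were higher in AICD cells, at -0.07 and -1.58 against -0.56 and -3.61 in vector cells. So was Pdgfra, at -4.90 against a dim vector array. Col1a1, Pdgfrb, Thy1, Snai2 and Twist1 were lower there in AICD cells, and Lum was dim in both lines. Other marker lists also differed between the lines. Summed signals of 7 neural progenitor markers were 13.2, 73.8 and 73.7 in AICD and 10.9, 115 and 127 in vector cells. Their line differences ran from -8.66 to 4.96. Of the 8 pluripotency markers, 5 were at least 2-fold higher in AICD cells when differentiated and 0 lower, where 4.62% and 3.96% of all genes were. The part of any of these marker lists in the Zrsr1 difference was not tested.

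None of the tested genes next to Zrsr1 was called for the line. Commd1, the host gene, a COMM-domain protein involved in copper handling, had signals of 4.61, 4.31 and 3.69 in the AICD line and 4.87, 4.16 and 3.54 in the vector line, and the ranges of the lines overlapped. Its line difference was 0.02 (limma, adjusted p = 0.980). The next tested genes on that chromosome, B3gnt2, Cct4 and Fam161a, had line differences of 0.86, -0.15 and 0.40, with adjusted p-values of 0.458, 0.757 and 0.762. None of 6 tested partners in 3′ splice-site recognition was called for the line: U2af1, U2af2, U2af1l4, Sf1, Sf3b1 and Zrsr2, the X-linked relative of Zrsr1, had differences of -0.07 to 0.39, with 1 of the 6 at an unadjusted p under 0.05. Zrsr2 itself was at 0.07 (limma, adjusted p = 0.898).

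**Figure D2:**
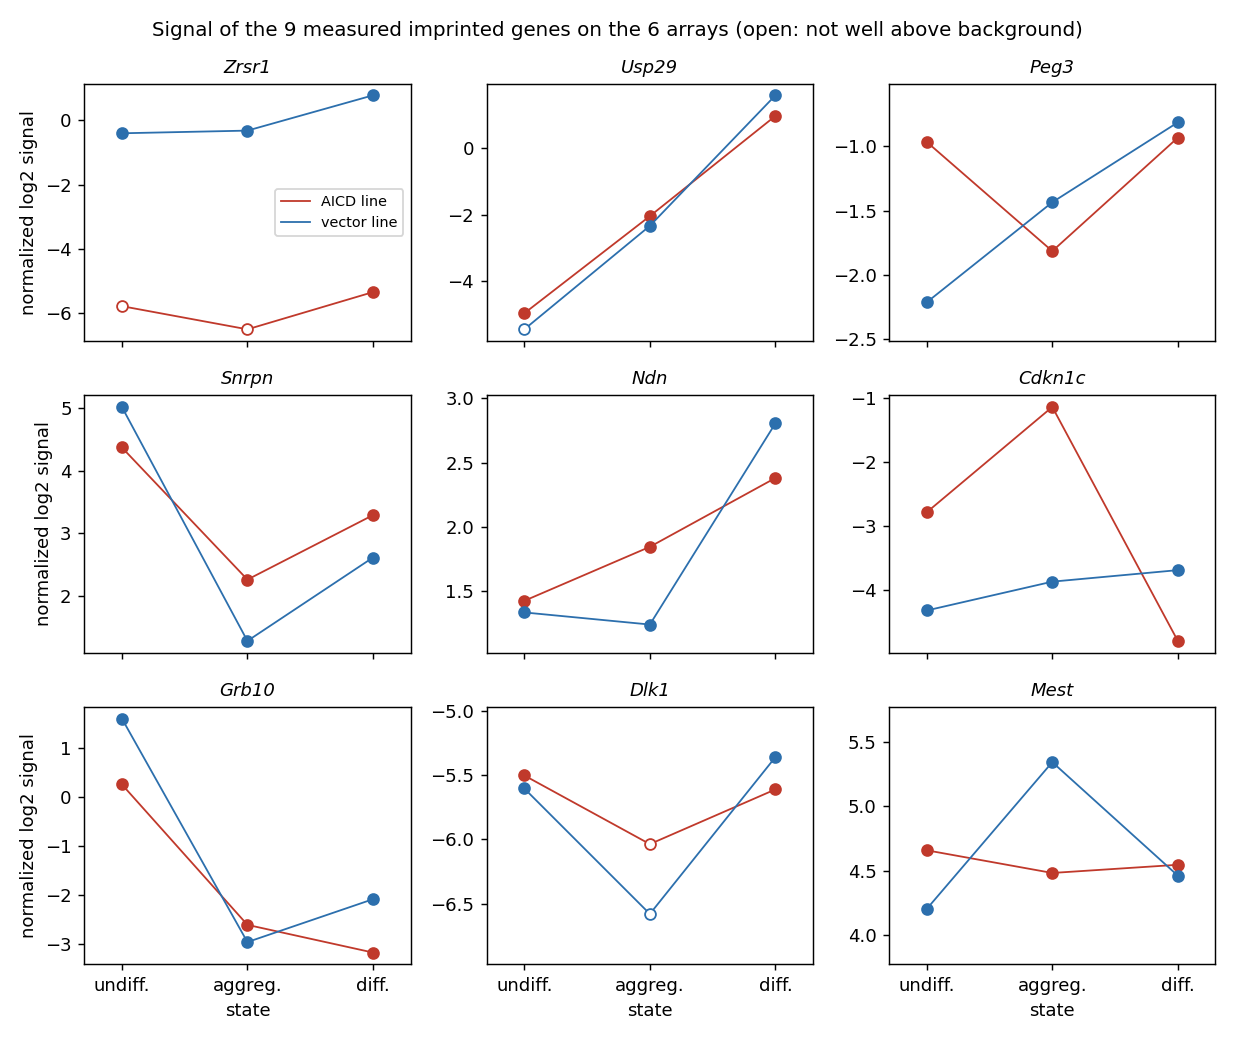
Normalized log2 signal of the 9 measured imprinted genes on each of the 6 arrays, by state, with the AICD line in red and the vector line in blue. Open points were not well above background. The Zrsr1 lines stay apart in all 3 states, the Usp29 lines climb together, and the Cdkn1c lines cross.

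Between the states, Usp29 climbed most among the 9 genes, Ndn ended higher, and Grb10 and Snrpn dropped at aggregation. From undifferentiated to aggregated cells 3 of the 9 were called, 1 higher and 2 lower, or 33.3% against 42.1% of all genes (14.3% higher, 27.9% lower). Over the whole course, differentiated against undifferentiated, 4 were called, 2 higher and 2 lower, or 44.4% against 61.4% of all genes (20.1% higher, 41.3% lower). These are counts of few genes, and neither share was tested against that of all genes. From aggregated to differentiated cells limma called 0 of the 9, with 0% of all genes called, while 4 of the 9 and 4341 of all 13381 genes had an unadjusted p under 0.05. Medians of the 9 genes were -0.04, 0.82 and 0.07 for the step to aggregation, the step to differentiation and the whole course, against -0.31, -0.08 and -0.44 for all genes. With quantile normalization the medians of all genes were -0.13, -0.07 and -0.24. These 3 comparisons share arrays and are not independent of each other.

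Usp29 and Peg3 share a bidirectional start region and a paternal mode of expression, but Usp29 was called between states and Peg3 was not. Usp29, which encodes a ubiquitin-specific protease, had signals of -4.99, -2.05 and 0.99 in the AICD line over the 3 states, and -5.48, -2.34 and 1.61 in the vector line. The undifferentiated vector array was not well above background. Both lines climbed at each step, and the 3 states did not overlap. In the AICD line Usp29 was 7.69-fold higher in aggregated than in undifferentiated cells and 8.19-fold higher in differentiated than in aggregated cells. The vector line gave at least 8.78-fold and 15.5-fold for the same steps. Over the whole course the rise was 63.0-fold in AICD cells and at least 136-fold in vector cells. With normexp background correction the direction was the same and the sizes were smaller. The rise over the whole course was 15.4-fold in AICD and 22.2-fold in vector cells, and the step to aggregation 2.78-fold in AICD and 2.16-fold in vector cells.

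In the fit Usp29 was 3.04 ± 0.33 higher in aggregated than in undifferentiated cells on the log2 scale (limma, adjusted p = 0.0131) and 6.53 ± 0.33 higher in differentiated than in undifferentiated cells (limma, adjusted p = 0.00494). Of the 2 undifferentiated arrays, 1 was dim. The step from aggregated to differentiated cells, 3.49 ± 0.33, was not called (limma, adjusted p = 0.0675), but lies on slide 2 alone. It was called with every probe tested separately (3.49, adjusted p = 0.0436). With normexp the same 3 differences were all called, at 1.29, 4.21 and 2.92 (limma, adjusted p = 0.0168, 0.00168 and 0.0344). Without the vector undifferentiated array the step to aggregation was 2.71 (adjusted p = 0.0502), without the vector aggregated array 3.22 (0.0838 as adjusted p) and without the AICD aggregated array 2.86 (0.0974). The line difference of Usp29 was 0.05 ± 0.27 (limma, adjusted p = 0.964).

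Peg3, a paternally expressed zinc-finger protein known for its part in growth and maternal behaviour, stayed within 1.40 log2 units over the 6 arrays. Its signals were -0.97, -1.81 and -0.93 in the AICD line and -2.21, -1.43 and -0.81 in the vector line, and the lines overlapped. At aggregation it was 0.85 lower in the AICD line and 0.78 higher in the vector line, on the log2 scale. Its other probe gave 0.89 lower and 0.98 higher. In undifferentiated cells Peg3 was 2.37-fold higher in AICD than in vector cells, and in the other states it lay within 1.30-fold. By its other probe it was 2.44-fold higher when undifferentiated and within 1.49-fold in the other states. No fitted difference of Peg3 was called, with adjusted p-values of 0.235 to 0.954. Without the AICD undifferentiated array its difference over the whole course was 1.46 (adjusted p = 0.0239), and without the vector undifferentiated array it was -0.03. Of the other listed genes of the cluster, Zim1, Zim2, Zim3 and Zfp264, 0 were tested.

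In the Prader-Willi and Angelman cluster, Snrpn and Ndn moved in opposite directions over the whole course. Snrpn encodes the spliceosomal protein SmN, known from brain. It had signals of 4.37, 2.26 and 3.29 in the AICD line and 5.02, 1.27 and 2.61 in the vector line. Both lines were highest when undifferentiated and lowest when aggregated, and the states did not overlap. The drop at aggregation was 4.34-fold in AICD cells and 13.5-fold in vector cells, and the level in differentiated cells was above that in aggregated cells by 2.05-fold in AICD and 2.53-fold in vector cells. Its other probe gave drops of 4.80-fold and 12.5-fold. Snrpn fell by 2.93 ± 0.45 on the log2 scale at aggregation (limma, adjusted p = 0.0183) and by 1.75 ± 0.45 over the whole course (limma, adjusted p = 0.0330).

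Neither Snrpn call held in every alternative. The step to aggregation was -2.45 without the vector aggregated array (adjusted p = 0.107) and -3.42 without the AICD aggregated array (adjusted p = 0.0961). Over the whole course quantile normalization gave -1.23 (adjusted p = 0.0683), and without the vector undifferentiated array the difference was -1.01 (adjusted p = 0.0531). Without the vector differentiated array it was -1.49 (adjusted p = 0.175), without the AICD differentiated array -2.01 (adjusted p = 0.0941), and with no filter on dim probes -1.75 (adjusted p = 0.0507). Snurf, the upstream reading frame on the same transcript, fell by 3.03 ± 0.38 at aggregation (limma, adjusted p = 0.0143). Since Snurf and Snrpn can share a transcript, their probes do not measure separate RNAs with certainty.

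Ndn encodes necdin, a growth-restraining protein of post-mitotic neurons. Its signals were 1.43, 1.84 and 2.38 in the AICD line and 1.34, 1.24 and 2.80 in the vector line. The differentiated arrays were the highest of both lines and did not overlap the others. Ndn was 1.94-fold higher in differentiated than in undifferentiated AICD cells and 2.77-fold higher in vector cells, a fitted rise of 1.21 ± 0.29 on the log2 scale (limma, adjusted p = 0.0274). Without the AICD undifferentiated, vector undifferentiated or vector differentiated array that adjusted p was 0.0903, 0.101 and 0.122, with the difference between 0.83 and 1.21. Of 5 other tested genes of the cluster, 2 rose and 2 fell over the whole course, where 61.4% of all genes were called. Peg12 (2.05) and Mkrn3 (1.26), which encodes a ring-finger protein, were higher, and Snurf (-1.78) and Atp10a (-0.96), a lipid flippase, were lower. The fifth, Ube3a, the ubiquitin ligase lost in Angelman syndrome, was at -0.39 (limma, adjusted p = 0.0999).

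Grb10 and Cdkn1c restrain growth. Grb10 encodes an adaptor that binds the insulin receptor and dampens its signal. It had signals of 0.25, -2.61 and -3.18 in the AICD line and 1.60, -2.97 and -2.09 in the vector line. Undifferentiated cells were highest in both lines, and the later states overlapped each other but not the undifferentiated state. At aggregation Grb10 was 7.30-fold lower in AICD cells and 23.7-fold lower in vector cells, and with normexp 4.28-fold and 12.8-fold lower. It fell by 3.72 ± 0.48 on the log2 scale at aggregation (limma, adjusted p = 0.0149) and by 3.56 ± 0.48 over the whole course (limma, adjusted p = 0.0088), against -2.89 and -2.86 with normexp (limma, adjusted p = 0.0092 and 0.00416). A dimmer probe of Grb10 also dropped at aggregation, by at least 3.15-fold in AICD and at least 11.6-fold in vector cells, and a further one was well above background on 1 array only.

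Without an aggregated array or the vector undifferentiated array the Grb10 step to aggregation was not called. The difference was -2.93 without the vector aggregated array (adjusted p = 0.0699), -4.50 without the AICD aggregated array (adjusted p = 0.0783) and -3.23 without the vector undifferentiated array (adjusted p = 0.0577). Without the vector differentiated array the whole course was -3.86 (adjusted p = 0.0554). Between lines Grb10 was 2.54-fold lower in AICD than in vector cells when undifferentiated and 2.13-fold lower when differentiated, and 1.28-fold higher when aggregated. Its neighbours are Ddc, the decarboxylase that makes dopamine and serotonin, and Cobl, an actin nucleator. Over the whole course they fell by 3.26 (limma, adjusted p = 0.0085) and 2.55 (limma, adjusted p = 0.00781). Of all genes, 41.3% were called lower in this comparison. The next tested genes, Fignl1 and Vstm2a, were at -1.83 (limma, adjusted p = 0.00933) and 1.04 (limma, adjusted p = 0.379).

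Cdkn1c encodes p57, an inhibitor of cyclin-dependent kinases that holds cells out of division. Its values in the lines crossed over the course. Its signals were -2.79, -1.14 and -4.80 in the AICD line and -4.32, -3.87 and -3.69 in the vector line, all well above background. The AICD arrays span the highest and the lowest value of the 6, and the vector arrays lie between them. In AICD against vector cells it was 2.90-fold higher when undifferentiated and 6.64-fold higher when aggregated, and 2.15-fold lower when differentiated. From aggregated to differentiated cells it was 12.6-fold lower in the AICD line and 1.13-fold higher in the vector line. With normexp background correction the 3 line differences kept their signs but shrank, to 1.44-fold higher, 3.69-fold higher and 1.33-fold lower in AICD than in vector cells. The drop from aggregated to differentiated AICD cells was then 4.77-fold. With errors of this size none of its fitted differences was called, the line difference being 1.05 ± 0.81 (limma, adjusted p = 0.671). No test of the difference between the courses was possible with 1 array each.

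Of 8 other tested genes of the Kcnq1 cluster, in which Cdkn1c lies, 0 were called for the line, with 1 at an unadjusted p under 0.05. In differentiated against undifferentiated cells 4 fell and 1 rose, or 62.5%, against 61.4% of all genes. Phlda2, a growth-restraining gene of the placenta, and Ascl2, a transcription factor of the placenta, were at -2.41 (limma, adjusted p = 0.032) and -1.67 (limma, adjusted p = 0.0078). Slc22a18 and the potassium channel gene Kcnq1 were at -0.67 and -0.76, and Osbpl5 was at 1.57 (limma, adjusted p = 0.0245).

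Dlk1 and Mest showed no called difference. Dlk1, a transmembrane inhibitor of differentiation in preadipocytes, lay near background throughout. Its signals were -5.50, -6.04 and -5.61 in the AICD line and -5.60, -6.58 and -5.36 in the vector line, with both aggregated arrays not well above background. Its adjusted p-values ran from 0.0714 to 0.855, and normexp background correction turned its difference over the whole course to -0.28, against 0.07. Of the other listed genes of that cluster only Dio3, which inactivates thyroid hormone, was tested. It was dim on all 3 AICD arrays, at least 4.22-fold lower in AICD than in vector cells when undifferentiated and at least 4.95-fold lower when differentiated (limma over the 3 states, adjusted p = 0.226). Dio3 passed the filter on dim probes through its undifferentiated and differentiated vector arrays alone, so no line difference is read from its fit.

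Mest, a paternally expressed hydrolase-like protein of embryonic mesoderm, stayed within 1.14 log2 units. Its signals were 4.66, 4.48 and 4.55 in the AICD line and 4.20, 5.34 and 4.46 in the vector line, and the lines overlapped. Only the vector aggregated array stood apart, 1.82-fold above the AICD aggregated array. Of 8 tested genes of the Mest and Peg10 clusters, 2 were called higher and 1 lower over the whole course, or 37.5%, against 61.4% of all genes. Ppp1r9a was at 1.43, and Calcr, the calcitonin receptor, fell by 3.60. The third, Pon3, passed the filter through its differentiated arrays alone, and was at least 2.65-fold higher in differentiated than in undifferentiated AICD cells and at least 1.54-fold higher in vector cells.

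**Figure D3:**
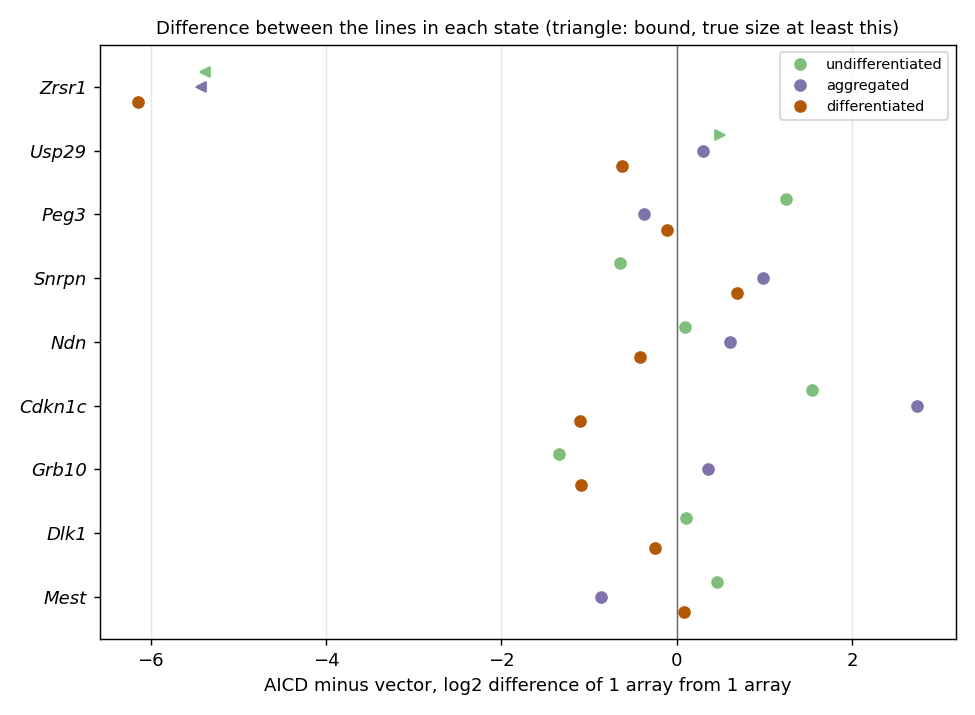
Difference of the AICD array from the vector array in each state, on the log2 scale, for the 9 measured genes. Triangles are bounds. In the processed signals Zrsr1 is below -5 in all 3 states, and Cdkn1c lies at 1.54, 2.73 and -1.11.

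Counted on single arrays that both measured a gene, 3 of 7 genes were at least 2-fold apart between the lines when undifferentiated, Cdkn1c and Peg3 higher and Grb10 lower in AICD cells. Of all genes measured, 8.32% were, 4.21% higher and 4.11% lower. In aggregated cells 1 of 7 was, Cdkn1c, which was higher in AICD cells, against 7.33% of all genes (4.21% higher, 3.12% lower). In differentiated cells 3 of 9 were, all lower in AICD cells (Zrsr1, Cdkn1c and Grb10), against 8.57% of all genes (4.62% higher, 3.96% lower). Zrsr1 adds its bounds in the undifferentiated and aggregated states. These are counts of few genes, without a test, and they depend on the scaling. With normexp 1 of the 7 was at least 2-fold apart when undifferentiated (Grb10, against 4.65% of all genes), 1 of the 7 when aggregated (Cdkn1c, against 4.11%) and 1 of the 9 when differentiated (Zrsr1, against 5.43%).

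**Figure D4:**
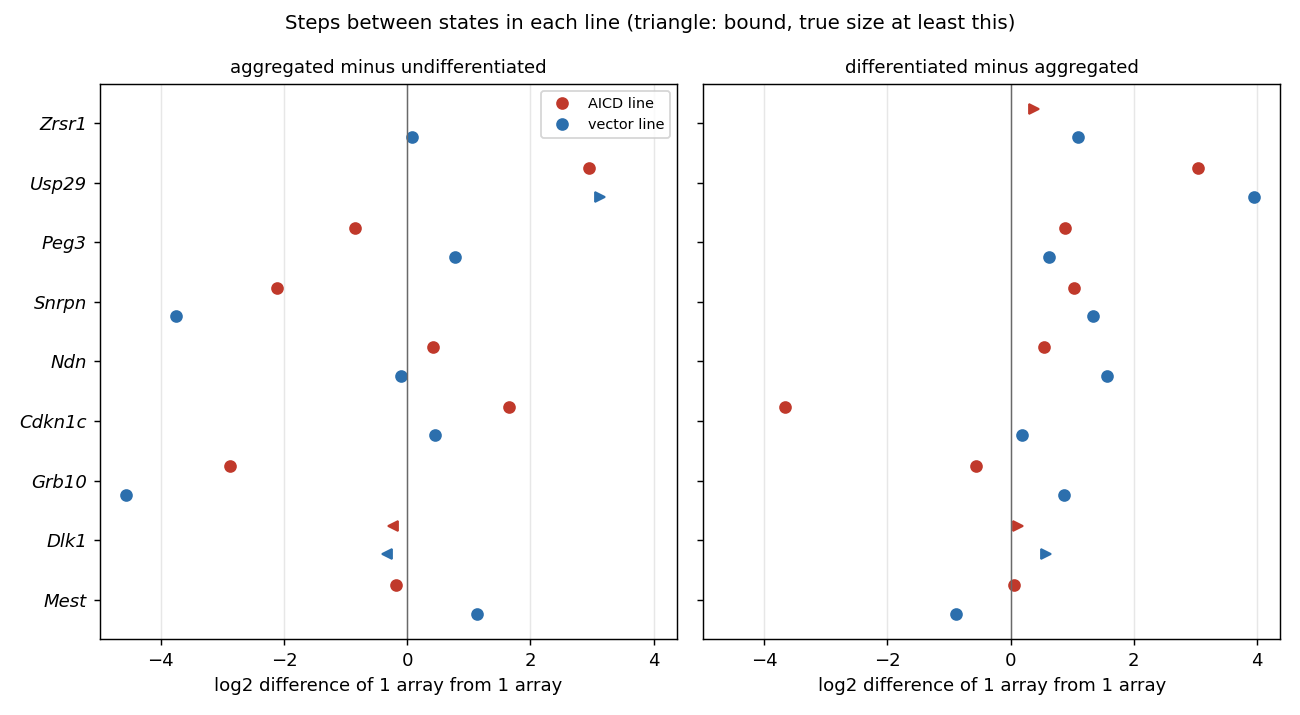
Differences between states within each line, on the log2 scale, for the step to aggregation (left) and the step to differentiation (right), with the AICD line in red and the vector line in blue. Triangles are bounds. Usp29 is to the right in both panels, Grb10 and Snrpn are to the left at aggregation, and Cdkn1c is at -3.66 in the AICD line and 0.18 in the vector line at differentiation.

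The wider imprinted genes gave the background for these 9. Of 59 others listed, 48 had a probe and 41 were tested. For the line 0 were called, with 13 at an unadjusted p under 0.05, or 31.7% against 12.5% of all genes, and a median difference of 0.12. Nearest to a call was H13, a signal peptide peptidase, at 1.89 (limma, adjusted p = 0.0567). The 13 include Dio3, which passed the filter on dim probes through vector arrays alone. The gene furthest from 0 was Nap1l5, related to the nucleosome assembly proteins, with a fitted 3.67 (limma, adjusted p = 0.286). Nap1l5 passed that filter through its aggregated and differentiated AICD arrays alone, so no line difference is read from its fit. It was dim on all 3 vector arrays and at least 1.40-fold higher in AICD than in vector cells when aggregated and at least 17.3-fold higher when differentiated. At aggregation 7 of the 41 were called higher and 12 lower, where 14.3% of all genes were called higher and 27.9% lower. Over the whole course 10 were called higher and 14 lower, or 58.5% with a median of -0.23, against 61.4% (20.1% higher, 41.3% lower) and -0.44 for all genes. Nnat, a neuronal membrane proteolipid, and Blcap, inside which it lies, were 5.64 and 1.67 higher in differentiated than in undifferentiated cells (limma, adjusted p = 0.00494 and 0.00853). Inpp5f, a phosphoinositide phosphatase, was 1.87 higher and Trappc9 1.27 higher. The 10 include Pon3, of which only bounds can be given, and Th, which was dim on all 4 arrays compared, so that no difference is read from it. The amino-acid transporter Slc38a4, Jade1, Impact, Mcts2 and Commd1 were lower, at -2.26, -1.38, -1.21, -1.15 and -1.12. Asb4 was called at aggregation only (-2.62).

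**Figure D5:**
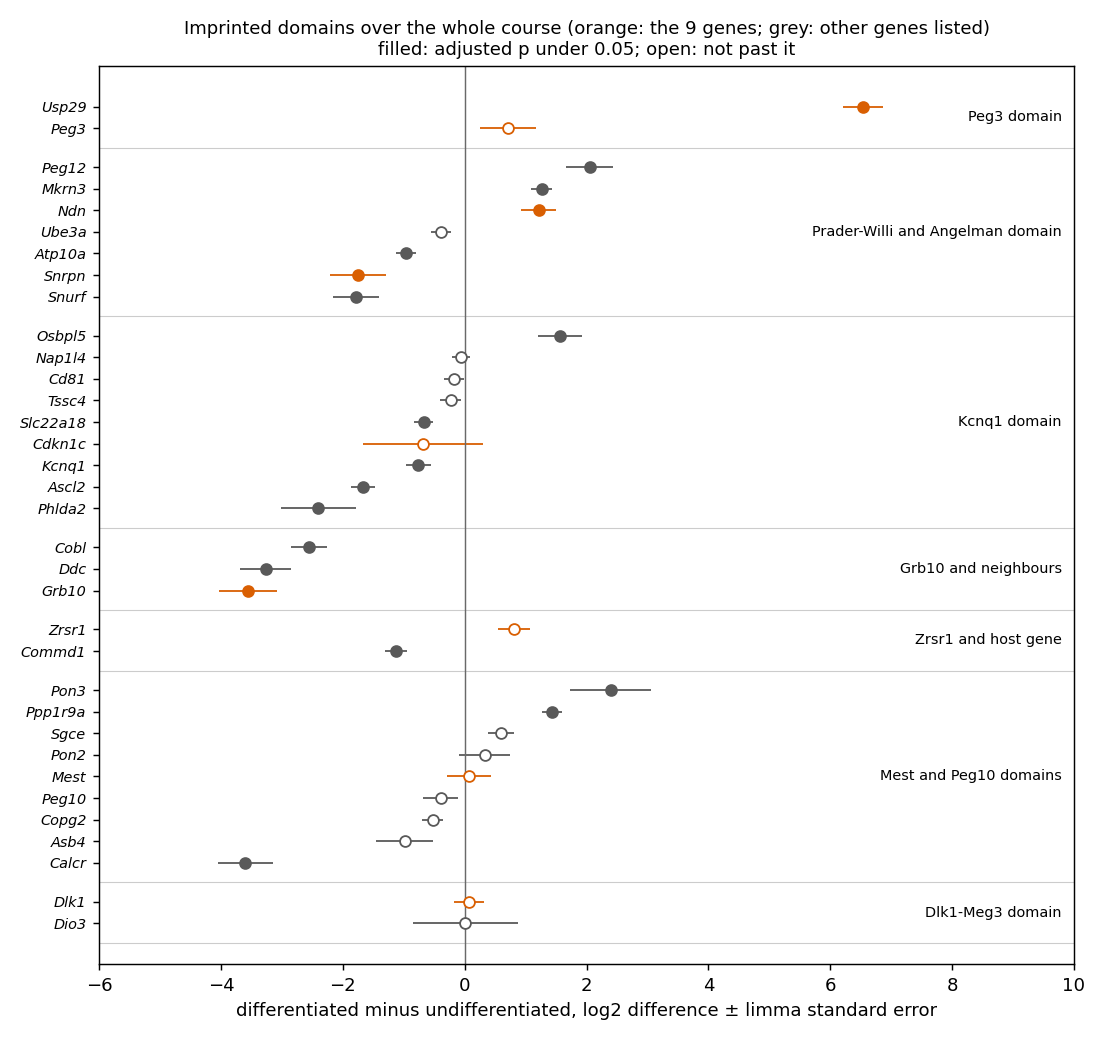
Differentiated minus undifferentiated difference of imprinted genes grouped by cluster, on the log2 scale, with limma standard errors. The 9 genes are orange and their listed neighbours grey, and filled points passed an adjusted p of 0.05. Usp29 stands highest at 6.53, and Snrpn and Snurf lie side by side at -1.75 and -1.78.

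Of 14 tested factors that act on imprints or on DNA methylation, 0 were called for the line and 0 had an unadjusted p under 0.05. That comparison averages over the states and can hide differences of opposite sign. Dnmt3b had signals of 4.27, 0.49 and 1.31 in the AICD line and 5.26, -1.10 and -1.43 in the vector line. When differentiated, 1 of 13 measured factors, Dnmt3b, was at least 2-fold apart between the lines, against 8.57% of all genes. Over the whole course 5 of the 14 factors were called higher and 7 lower, or 85.7%, against 61.4% of all genes. The methyltransferases Dnmt3b, Dnmt3a and their partner Dnmt3l were at -4.83, -2.01 and -2.07, and the corepressor Trim28, the methylation reader Uhrf1 and the insulator protein Ctcf at -1.07, -1.54 and -0.63. Dppa3, an oocyte protector of imprints, was called lower too, but was dim on all arrays after the undifferentiated state. Its whole-course drop was at least 3.08-fold in AICD and at least 3.09-fold in vector cells. Tet2, an oxidase of methylcytosine, was at 2.36, the imprint-binding zinc-finger genes Zfp57 and Zfp445 at 1.88 and 1.28, and the chromatin genes Arid4a and Arid4b at 1.03 and 1.21. Dnmt1, the maintenance methyltransferase, and Smchd1 were not called (limma, adjusted p = 0.0644 and 0.0553). All 6 splice-site partners of Zrsr1 were called over the whole course, where 41.3% of all genes were called lower and 20.1% higher, Sf3b1 higher at 0.65 and the other 5 lower, between -1.17 and -0.66.

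For each gene that spanned at least 2 log2 units, the named genes with the most similar profile were sought by the root mean square distance between centred signals over the 6 arrays, in log2 units. Snrpn had Snurf at 0.0942, then Eid3 at 0.256 and Actn3 at 0.260. Usp29 had Adgrb3 at 0.288, Scn3b at 0.318 and Plxna2 at 0.351. Adgrb3 is an adhesion receptor and Scn3b a sodium channel subunit. Grb10 had Pla2g5 at 0.318, Hsd17b11 at 0.377 and Tm4sf5 at 0.400. The profiles nearest to Zrsr1 were those of Zfp182 at 0.635, Igf2r at 0.728, itself an imprinted receptor of the growth factor axis, and Ntpcr at 0.796. The nearest to Cdkn1c were Grifin at 0.511, Trpm5 at 0.532 and T at 0.547, the gene of the mesoderm factor brachyury. Trpm5 lies near Cdkn1c on the same chromosome, with 1 tested gene, Kcnq1, between them. All distances rest on 6 arrays, and the genes share those arrays.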

How the data were processed

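Signals came from 6 single-colour Agilent arrays. Per the file headers, the deposited scanner files were written by Agilent Feature Extraction, version 10.1.1.1. Their processed signal used here is an intensity after background subtraction, not scaled between arrays. The authors' deposited value table, in which the unit is a score with many blanks, was not used for tests. To compare directions, listed values below unity were first replaced by minus their reciprocal. The log2 signal of each probe was taken relative to its median over the 6 arrays. After both steps, 28 of the 28 values listed for these genes' probes had the same sign as the centred signals. The deposited values were not compared without this recoding. Spots of a probe were averaged. Of 41174 probes, 24844 received a symbol through RefSeq accessions (GRCm38.p6), and 16330 did not. The probe with the highest mean among those well above background on at least 2 arrays stood for a gene, and other probes are given beside it. Fits used limma 3.58.1 in R 4.3.3, two-sided, with 2 residual and 2.05 prior degrees of freedom. The labels do not say that the arrays came from separate cultures. A bound sets the brighter array against the higher of the dim probe's own signal and the lowest signal that the dim array shows for any probe called well above background. The number of arrays limits the precision.

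The genes, the lists and the tests were chosen with earlier results of these data known. Named are all 9 genes, every called gene of the other imprinted, imprint maintenance and splicing lists with some of the largest uncalled ones, and the 3 nearest profiles per gene; marker genes and gene-order neighbours were added after values were seen. The alternatives were another background correction, normalization, filter or probe rule, a fit to slide 2 alone, and leaving out each array; normexp (offset 50) used the median spot signal in place of the mean. The fitting script was tested on simulated data.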

Additional observations from a re-analysis of the deposited data

Results flagged for a closer look

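With 1 array per line and state, several genes had differences of opposite sign under the same contrast, each larger than 0.235 on the log2 scale, a size set by the spread of replicate spots within an array. None of these differences between differences was tested. AICD minus vector was 2.73 in aggregated and -1.11 in differentiated cells for Cdkn1c, and 1.25 in undifferentiated and -0.38 in aggregated cells for Peg3. It was 0.98 in aggregated and -0.65 in undifferentiated cells for Snrpn, and 0.35 in aggregated and -1.34 in undifferentiated cells for Grb10. For Mest it was 0.46 in undifferentiated and -0.86 in aggregated cells. Ndn gave 0.60 in aggregated and -0.42 in differentiated cells, and Usp29 gave 0.29 in aggregated and -0.62 in differentiated cells. Between states, the step to aggregation was -0.85 in the AICD line and 0.78 in the vector line for Peg3, and the step to differentiation was -0.57 in the AICD line and 0.88 in the vector line for Grb10.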

How the results depend on the processing

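Of the 9 genes, 1 was called between the lines; this count was 0 with no filter on dim probes, 0 in genes well above background on all 6 arrays (Zrsr1 is not among them), and 0 to 1 when arrays were left out in turn. Over all genes, 47 were called between the lines, 0 with no filter, 97 on slide 2 alone, and 0 to 97 with an array left out; testing every probe called 77 of 28459 probes. Leaving out arrays gave 0 to 4185 genes for aggregation (5634 with all arrays) and 879 to 6628 for the whole course (8215 with all arrays). For differentiation 733 genes were called among those well above background on all 6 arrays. The count at aggregation was 3, and 0 to 3 when arrays were left out. At differentiation it was 0, and 1 with normexp background correction and 1 with every probe tested separately (Usp29), where 1376 genes and 766 probes were called in all. Over the whole course it was 4, and 1 to 5 when arrays were left out. No called difference changed sign, but small uncalled ones did. With normexp, Dlk1 was at -0.023 for differentiation and -0.28 for the whole course, and Usp29 at -0.13 between the lines. With the mean of the probes of a gene, Peg3 was at 0.0045 for aggregation. On slide 2 alone the line difference was -0.25 for Peg3 and -0.16 for Usp29. When arrays were left out in turn, the line difference ran from -0.16 to 0.39 for Usp29, -0.25 to 0.56 for Peg3, -0.39 to 0.27 for Mest, -0.075 to 0.32 for Dlk1 and -0.17 to 0.35 for Ndn. The step to aggregation ran from -0.78 to 0.71 for Peg3, -0.71 to 0.068 for Zrsr1, -0.083 to 1.05 for Mest, -0.21 to 2.31 for Cdkn1c and -0.22 to 0.55 for Ndn. The step to differentiation ran from -0.97 to 0.16 for Mest and -0.63 to 0.94 for Grb10. The whole course ran from -0.22 to 0.35 for Dlk1, -0.35 to 0.49 for Mest, -0.032 to 1.46 for Peg3 and -2.31 to 0.93 for Cdkn1c. The causes were not tested. The fit itself compares the lines within each state, and the labels give no replicate numbers to block on. A fit to slide 2 could give no value for comparisons with the undifferentiated state. With an array left out, its partner is assumed to vary like the others. Dim signals limit Zrsr1, Dlk1 and early Usp29 to bounds or values near background.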
